A study of Drosophila melanogaster with 76 samples.

Results

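Of the 6451 regions called with anti-Zld in Drosophila melanogaster S2 cells expressing Zelda (Zld), 575 are described here under the name Zelda-only regions. They are the regions of that peak list that shared not even 1 bp with the peak list of cells expressing Grainy head (Grh), with that of cells expressing Twist (Twi), or with any of 4 lists from wild-type cells. The members were thus chosen by absence from 6 lists, and nothing below treats that absence as a finding. The name covers those 6 lists alone, since 157 of the 575 were called in other Grh or Twi lists, 55 of them with Grh at the same 100 µM. Of the 6451 regions, 4346 were also called with anti-Zld in wild-type cells, so a region of the list is a call and not by itself a site of the introduced Zelda. The study as a whole gave 179969 regions in 31 peak lists made by chromatin immunoprecipitation followed by sequencing (ChIP-seq).

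S2 is a Drosophila cell line with properties of embryonic blood cells. The S2-Zld line carried Zelda under copper control and received 1000 µM copper sulfate for the defining list. The S2-Grh line received 100 µM and the S2-Twi line 40 µM. Wild-type S2 cells were given the same copper as the line they were matched to, 1000 µM for anti-Zld, 100 µM for anti-Grh and 40 µM for anti-Twi and anti-HA. The 24 lists that the choice did not use included S2-Zld cells at 0, 500, 1000 and 1500 µM (the dose series), S2-Zld cells at 1000 µM with DMSO or with a treatment written "taz" in the labels, and 3 lists of a truncated construct named Zld-DBD, read here as the DNA-binding domain, with 2 lists at 100 µM and 1 at 400 µM. The remaining 15 were Grh at 0, 25, 100 and 400 µM and at 100 µM with DMSO or taz, Grh-DBD in 2 lists at 20 µM and 1 at 80 µM, and HA-tagged Twist (HA-Twi) at 0, 10, 40 and 160 µM and at 40 µM with DMSO or taz. Each list pools 2 libraries. No spread between libraries could be computed, no test was made between lists or groups of regions, and intervals are exact Clopper-Pearson 95% binomial intervals that cover counting error only. No genome sequence was used here, so the sequence under the summits is not described.

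Zelda is a zinc-finger protein that binds short CAGGTA-type sites and is known as the factor that opens chromatin for the first genes transcribed by the fly embryo. It is called a pioneer factor because it can reach such sites in closed chromatin. S2 cells are derived from late embryos and are not a tissue in which Zelda normally acts. Grainy head regulates epithelial genes and Twist is a basic helix-loop-helix regulator of the mesoderm.

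The 575 regions were mostly short peaks with a single summit. Their median width was 574 bp (304 to 2767), against 599.5 bp for the 1320 Zelda regions shared with Grh or Twi but not wild type and 683.5 bp for the 4556 shared with wild type. A single summit was called in 469 of them, 81.6% (78.1 to 84.7), against 75.3% and 66.0% of those sets. The fold is the authors' enrichment of the immunoprecipitation over the local background at the summit. It had a median of 3.23 in the members (1.35 to 21.0), 3.18 in the regions shared with Grh or Twi and 2.89 in those shared with wild type. These similar folds stood on different amounts of signal. The pileup at the summit, the number of overlapping fragments as the peak caller scales them, recovered from the deposited fold and p-value, had a median of 244 in the 524 members for which it could be obtained, with a median local background of 68.6. In 1219 of the regions shared with Grh or Twi but not wild type these medians were 292 and 89.2, closer to those of the members. In 3646 of the wild-type-shared regions they were 568 and 196. Values could be obtained only up to a −log10 p of 250. The summits of smallest p-value are thus left out of all 3 sets, and not in equal shares. The lower quartile of the members' background was 58.6, equal within rounding to the lowest value found in the list.

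The leading member, with an authors' fold of 21.0, lay inside tkv, which encodes a type I receptor for the BMP ligand Dpp (chromosome 2L, 5253438 to 5254993, build dm6). It was called again at 1000 µM (fold 6.94) and 1500 µM (8.25) of the dose series, with DMSO (9.91) and with taz (7.83), but not at 0 or 500 µM. The member 238 bp from scro, a homeobox gene of the NK2 family (3L, 24723631 to 24724253), had a fold of 17.5 and was called in the same 4 lists (4.71, 4.88, 2.61 and 2.79) and in the first Zld-DBD list (2.76). Folds of different lists are given side by side as values within each list and do not rank the lists. A pair of members stood 7139 bp and 10201 bp from CG4218 (2L, 14539407 to 14541203 and 14536959 to 14538187), with folds of 14.98 and 14.1. The first of that pair was the only one of the 20 leading members called at 0 µM (fold 2.55). Members inside Samuel (2L, 11022763 to 11024486, fold 14.5, and 11025309 to 11026551, fold 9.97) were called at every dose of the series except 0 µM.

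Further leading members lay 109 bp from CG44227 (3R, 8684216 to 8685243, fold 13.3) and 2254 bp from CG44174 (3R, 19299072 to 19300703, fold 12.8). One stood 6471 bp from CG7320 (3L, 18209491 to 18210712, fold 12.1). Another was inside ppk30, a gene of the sodium channel family (3R, 29670946 to 29672101, fold 12.1). Regulators of development among the others were prd, a pair-rule gene (127 bp away, 2L, 12085615 to 12086283, fold 9.12), Tollo, a Toll-family receptor (12893 bp, 3L, 15222292 to 15224085, fold 9.15), and drm, a zinc-finger gene of the odd-skipped family (7651 bp, 2L, 3554951 to 3556763, fold 8.83). The region at prd was also called in the dose series at 1000 and 1500 µM (2.76 and 2.88) and with DMSO (3.18) and taz (2.64). The region inside CG9107 (fold 9.48) was called in the same 4 lists, and that 8980 bp from ND-20L (fold 9.83) in these and at 500 µM.

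**Figure D1:**
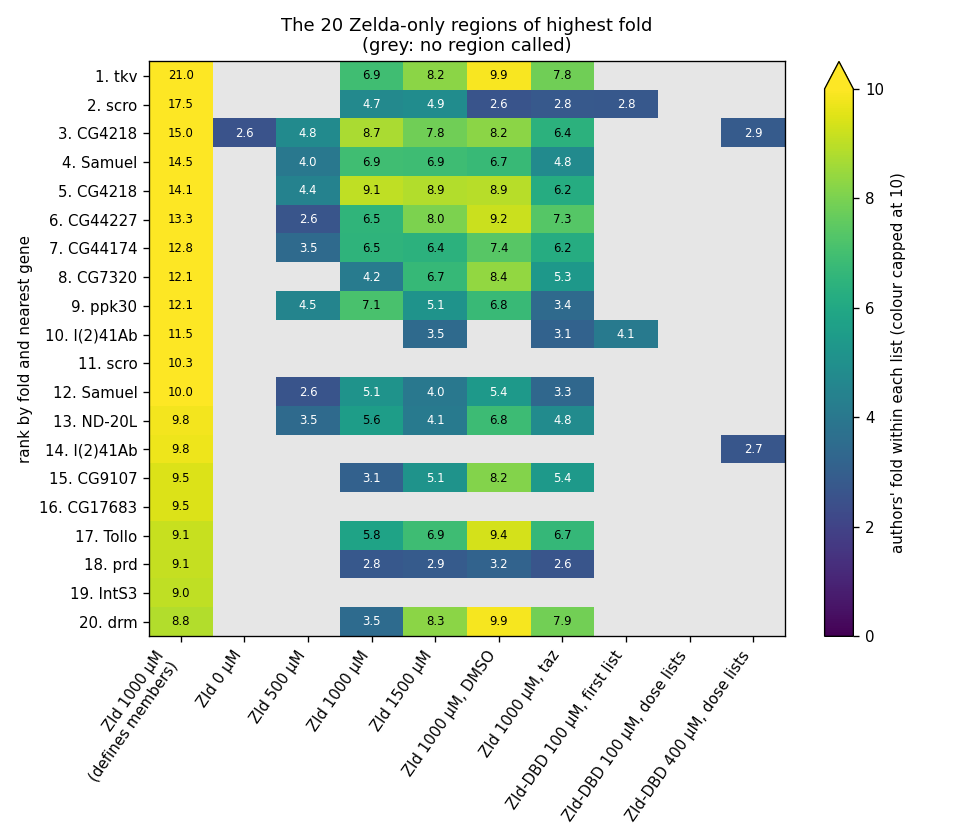
The 20 Zelda-only regions of highest fold (vertical axis, rank and nearest gene) in the defining list and in 9 other lists of full-length Zelda or its DNA-binding domain (horizontal axis). Numbers and colour give the authors' fold within each list and grey means that no region was called; 15 of the 20 were called in at least 4 of the other 6 full-length lists and 4 in none.

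Of the 20 leading members, 15 were called in 4 or more of the other 6 full-length Zelda lists. Within 5 Mb of the centromere end of an arm lay 6 of the 20, namely the other 5 and the member 238 bp from scro, which was called in 4 lists. Of those 5, a region inside l(2)41Ab (2R, 1395059 to 1396342, fold 11.5) was called at 1500 µM and with taz, and the other 4 were in none of the 6 lists. They were a second region near scro (81971 bp away, 3L, 24839560 to 24840773, fold 10.3), another inside l(2)41Ab (2R, 1440819 to 1441608, fold 9.75), one 36480 bp from CG17683 (2R, 4093746 to 4094905, fold 9.47) and one 5785 bp from IntS3 (2R, 4247563 to 4249006, fold 9.05).

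The dose series addressed how the calls followed copper. Members were called in 110 cases at 0 µM, or 19.1% (16.0 to 22.6), in 193 at 500 µM, 33.6% (29.7 to 37.6), in 299 at 1000 µM, 52.0% (47.8 to 56.2), and in 375 at 1500 µM, 65.2% (61.2 to 69.1). The shares over all regions of the Zelda list were 66.3%, 80.6%, 87.5% and 86.8%. The members' share was thus highest at 1500 µM, and that of the whole list was about the same at 1000 and 1500 µM. The share of the regions shared with Grh or Twi but not wild type was highest at 1500 µM too. Their shares over the same doses were 53.8%, 71.0%, 81.4% and 87.0%. Each dose is 1 pooled list, so the intervals describe the 575 regions and do not test a difference between doses. The lists themselves held 6719, 8988, 9449 and 9615 regions. Of the 575, 115 were called at 1500 µM alone, 100 first at 1000 µM and again at 1500, 69 first at 500 µM and at both higher doses, 87 at all 4 doses and 151 at none. The remaining 53 had another order. A call at all 4 doses was found for 15.1% of the members (12.3 to 18.3) and 61.8% of all Zelda regions.

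**Figure D2:**
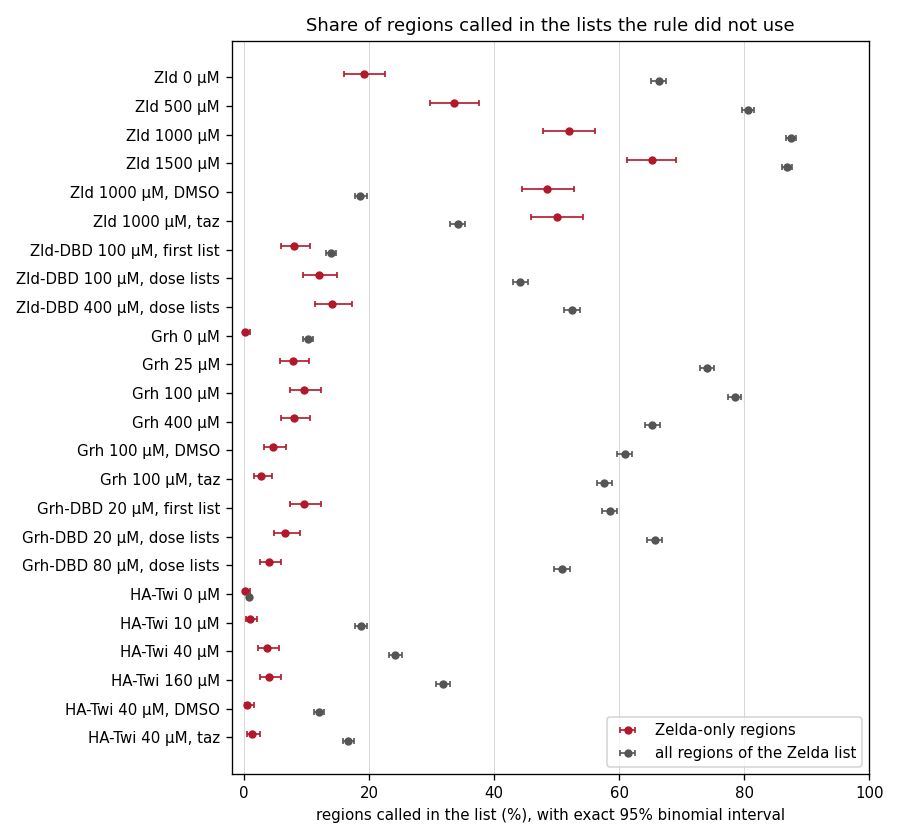
Share of regions called (horizontal axis, percent, with exact 95% binomial interval) in each of the 24 lists that did not choose the members (vertical axis), for the 575 Zelda-only regions in red and all 6451 regions of the Zelda list in grey. The red points lie below the grey ones in every list except the full-length Zelda lists with DMSO (48.5% against 18.6%) and taz (50.1% against 34.2%), where they lie above.

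In the full-length Zelda lists with DMSO and with taz the members' share was above that of the whole list. The DMSO list called 279 members, 48.5% (44.4 to 52.7), and 18.6% of all Zelda regions. The taz list called 288 members, 50.1% (45.9 to 54.3), and 34.2% of all. The regions shared with Grh or Twi but not wild type were above the whole list too. Their shares were 29.3% (26.9 to 31.9) with DMSO and 45.6% (42.9 to 48.3) with taz. Whether they differ from the members was not tested. Members called in both numbered 192 (33.4%, against 12.6% of all Zelda regions), with DMSO but not taz 87 (15.1%, against 6%), and with taz but not DMSO 96 (16.7%, against 21.5%). These lists are short, with 2150 and 3222 regions. Of the DMSO list, 13.1% of the regions lay on a member, and of the taz list 9.19%, while in the dose-series list at the same 1000 µM it was 3.24%. Within the DMSO list the members called had a median fold of 4.97, against 3.30 over the whole list. The members' median was also the higher one in every other full-length Zelda and Zld-DBD list. At 1000 µM of the dose series it was 3.58 against 2.73, and with taz 3.46 against 2.53. The highest fold was taken where several regions lay on a member, which was not done for the whole list. Full-length Zelda at 1000 µM was thus measured in the defining, the dose-series and the DMSO experiment, and a member was called in the latter 2 in 52.0% and 48.5% of cases. Lists of other constructs repeated at a single dose differed as well, and their counts are given below.

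Across the 6 other full-length lists, 466 of the 575 members were called at least once, 81.0% (77.6 to 84.2), against 95% of all Zelda regions. Calls in all 6 were made for 13 members, 2.26%, against 5.38% of all. Where a member was called, the summits stood close together. The median distance between the 2 summits was 18 bp in the dose-series lists at 1000 and 1500 µM, 20 bp with taz and 34 bp with DMSO, and 86.6% of the summits at 1000 µM lay within 100 bp of the member's own. The rank order of folds among the members called in both lists had a Spearman rho of 0.45 at 1000 µM (299 members), 0.55 at 1500 µM (375) and 0.47 with DMSO (279), given as a description because these points share the defining library pair.

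**Figure D3:**
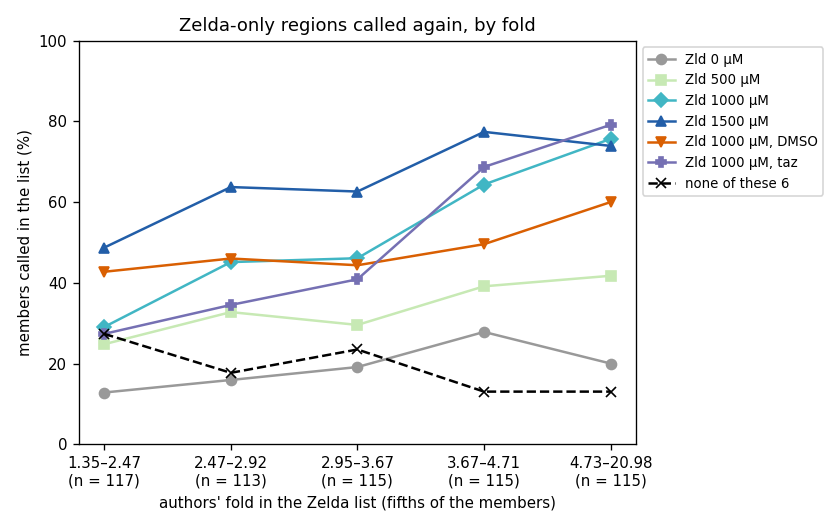
Share of members called in each other full-length Zelda list (vertical axis, percent) in 5 classes of the authors' fold in the defining list (horizontal axis). The share at 1000 µM was 29.1% in the class of lowest fold and 75.7% in that of highest fold, and the dashed line shows the members called in none of the 6 lists (27.4% and 13.0%).

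The share called again differed with the fold. Of the 117 members of lowest fold (1.35 to 2.47), 29.1% were called at 1000 µM of the dose series and 27.4% with taz. Of the 115 of highest fold (4.73 to 21.0) it was 75.7% and 79.1%. With DMSO the shares were 42.7% and 60.0%. Among regions in the top quartile of the whole list by fold, 69.9% of 229 members were called at 1000 µM, 88.1% of 436 regions shared with Grh or Twi, and 96.1% of 948 shared with wild type. With DMSO those shares were 55.02%, 50.5% and 27.4%, and with taz they were 73.8%, 78.4% and 75.3%. The members' taz share was therefore not above the others among regions of high fold. In the lowest quartile the taz shares of these sets were 26.8%, 15.4% and 3.77%, with the members highest. Over all Zelda regions the taz share was 7.19% in the lowest quartile and 75.9% in the top one. At 1000 µM these were 82.1% and 90.2%.

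The DNA-binding domain lists met few of the members. They were called in 46 cases in the first Zld-DBD list at 100 µM, 8.0% (5.92 to 10.5), in 69 in the later list at 100 µM, 12% (9.46 to 14.9), and in 81 at 400 µM, 14.1% (11.3 to 17.2). All Zelda regions were called there in 13.9%, 44.2% and 52.5% of cases. At least 1 of the 3 lists called 115 members, 20.0% (16.8 to 23.5), against 60.7% of all Zelda regions and 40.8% (38.2 to 43.5) of those shared with Grh or Twi but not wild type. Copper doses differed between the full-length and the domain lines, so these are values side by side.

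Members called without copper were set beside the rest. Of the 110 called at 0 µM, 74 were called in a DBD list, 67.3% (57.7 to 75.9), against 41 of the 465 not called at 0 µM, 8.82% (6.40 to 11.8). In at least 1 of the 15 other Grh or Twi lists these were 70.0% (60.5 to 78.4) and 17.2% (13.9 to 20.9). With DMSO the order was reversed, with 18.2% (11.5 to 26.7) and 55.7% (51.1 to 60.3). Summits within 500 bp of a gene end made up 39.1% (29.9 to 48.9) of the members called at 0 µM and 12.9% (9.99 to 16.3) of the others. The median folds of the members called and not called at 0 µM were 3.68 and 3.14. Over all Zelda regions the shares were 60.7% in a DBD list and 87.9% in another Grh or Twi list. With DMSO the share was 18.6%, and near a gene end 56.1%. The split at 0 µM was not made for other Zelda regions, so whether it is particular to the members was not tested. Wild-type cells had no region at either subset of members because the choice required it.

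The choice used 1 Grh and 1 Twi list, and 15 further lists hold Grh, Grh-DBD or HA-Twi. Members were chosen by absence from lists of these factors, so low shares here are partly set by the choice. They are not read as a finding. At least 1 of the 15 lists called 157 members, 27.3% (23.7 to 31.1), against 87.9% of all Zelda regions, which include those the choice removed. The other 418 were in none of the 15. In the Grh dose series the members called numbered 1 at 0 µM (10.2% of all Zelda regions), 45 at 25 µM (74%), 55 at 100 µM (78.4%) and 46 at 400 µM (65.3%), so at most 9.57% of the 575. Grh at 100 µM called 27 with DMSO (60.9%) and 16 with taz (57.6%). The first Grh-DBD list at 20 µM called 55 (58.5%), the later lists 38 at 20 µM (65.7%) and 23 at 80 µM (50.9%). With HA-Twi the calls were 1 at 0 µM (0.729%), 5 at 10 µM (18.6%), 21 at 40 µM (24.2%) and 23 at 160 µM (31.8%), and 3 with DMSO (12%) and 7 with taz (16.7%). Over all 24 lists, 484 members had a call, against 97.8% of all Zelda regions, and 91 had none.

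The members called most widely were not those of highest fold. A region inside Sema1a, a guidance molecule of axons (2L, 8553585 to 8554234, fold 4.77), was called in 15 of the 24 lists. A region 144 bp from CG33777 (3L, 4554165 to 4554605, fold 4.85) was called in 14. Regions inside CG30428 (fold 4.70) and CG11241 (fold 4.62) and 73 bp from Nse4, a subunit gene of the Smc5/6 complex (fold 3.82), were called in 13 each. Another member with 13 lists, inside siz (3L, 21049267 to 21049731), had a lower fold of 2.99. All 6 were called at 0 µM and in at least 1 DBD list. At the other end, the 5 members of highest fold with no call in any of the 24 lists were those near scro, CG17683 and IntS3 described above, one 6009 bp from lt, the classical heterochromatic gene light (2L, 22918615 to 22919424, fold 8.32), and one 25029 bp from Cyp6t1, a cytochrome P450 gene (X, 21543803 to 21544554, fold 5.51).

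Zelda-only summits lay away from gene ends. Within 500 bp of either end of a protein-coding gene were 103 of 575, 17.9% (14.9 to 21.3), against 49.1% (46.4 to 51.8) of the regions shared with Grh or Twi but not wild type and 62.9% (61.5 to 64.3) of those shared with wild type. Elsewhere inside a gene were 269, 46.8% (42.6 to 51.0), and outside genes 203, 35.3% (31.4 to 39.4). The other sets had 13.9% and 9.04% of their summits outside genes. Summits not inside a gene span, those within 500 bp of one included, were a median of 3014 bp from the nearest gene in the 277 members concerned, 105 bp in the regions shared with Grh or Twi and 86 bp in those shared with wild type. The gene table used has no strand, so a start and an end of a gene were not separated, and exons and introns were not either. With a window of 250 bp or 1000 bp the share near a gene end was 13.2% or 25.4%.

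**Figure D4:**
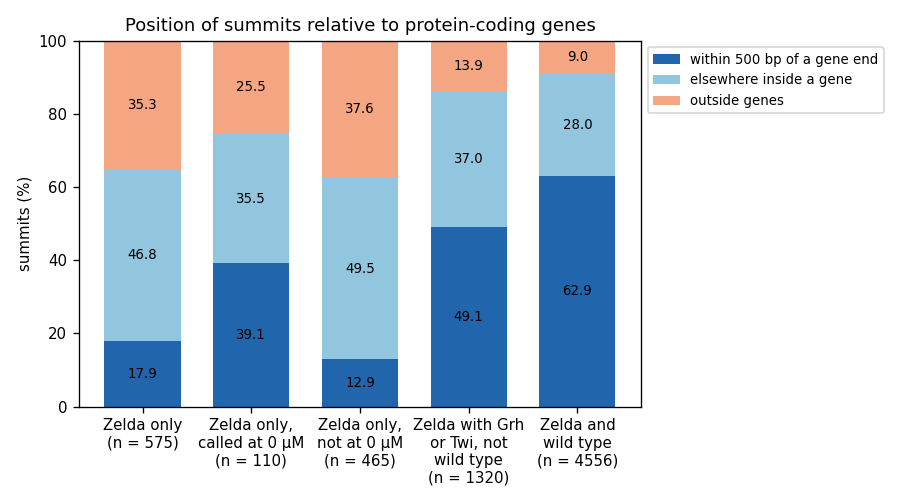
Position of summits (vertical axis, percent of summits) for the Zelda-only regions, their subsets called and not called at 0 µM, and the other Zelda regions (horizontal axis, with the number of regions). Summits within 500 bp of a gene end made up 17.9% of the Zelda-only regions and 62.9% of the regions shared with wild type.

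The members were spread over all arms, with 91 on 2L, 127 on 2R, 122 on 3L, 127 on 3R, 89 on X and 19 on chromosome 4, the small chromosome rich in heterochromatin. Chromosome 4 held 3.30% of the members (2.00 to 5.11) and 1.33% of all Zelda regions, and 10 of its 19 members were called at 0 µM. Within 5 Mb of the centromere end of an arm, a stretch that includes the repeat-rich pericentric heterochromatin, lay 110 members, 19.1% (16.0 to 22.6), against 9.39% of all Zelda regions. Of those 110, 53 were in none of the 6 other full-length lists, 48.2% (38.6 to 57.9), against 53 of the 446 elsewhere on the arms, 11.9% (9.03 to 15.3). The median folds of these members were 3.23 and 3.22. Over all Zelda regions 5.04% were in none of the 6 lists. That share was not computed for all Zelda regions near centromeres, so whether the difference is particular to the members was not tested. Without the members near centromeres and on chromosome 4, the share of members called at least once in the 6 lists was 88.1%, with DMSO 57.4%, and at 1000 µM of the dose series 59.0%.

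**Figure D5:**
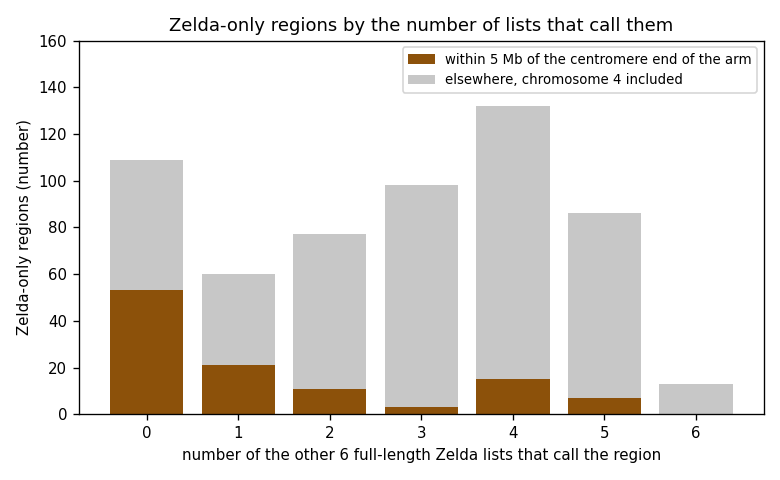
Number of Zelda-only regions (vertical axis) by how many of the other 6 full-length Zelda lists called them (horizontal axis), with those within 5 Mb of the centromere end of an arm in brown. Of the 109 regions in none of the lists, 53 lay near a centromere, and of the 132 regions in 4 lists, 15.

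Early zygotic genes, the known embryonic targets of Zelda, had a member within 2000 bp of the gene span in 7 of 34 cases, 20.6%, where 3.61% of the 13922 protein-coding genes had one. Over all regions of the Zelda list the shares were 50.0% and 54.1%, and over the regions shared with wild type 38.2% and 45.1%. The gene lists were chosen with earlier results of these data known, so the count is a description. None of the 7 leading members at these genes was called at 0 µM or in a DBD list. At twi, the mesoderm regulator itself, the region (2R, 23044704 to 23045385, fold 2.80) was called at 500 µM (2.67), 1000 µM (2.68) and 1500 µM (4.09) and with DMSO (3.99). At the homeobox gene zen (3R, 6755410 to 6755816, 1421 bp away) the fold was 4.65, and calls were made at 1500 µM (2.397) and with DMSO (8.07). The gene nearest to that region was not zen but bcd, 227 bp away. The region near the pair-rule gene eve (1830 bp away, 2R, 9977152 to 9977719, fold 1.75) was called at 1500 µM (3.49) and with DMSO (5.01). That near the fork-head gene slp1 (557 bp away, 2L, 3827480 to 3827877, fold 2.53) was also called at 1500 µM (2.33) and with DMSO (5.87). A member 85 bp from tld, a protease that frees Dpp (3R, 24749312 to 24749971, fold 5.18), was called at 1000 µM (2.70) and 1500 µM (4.49), with DMSO (6.63) and with taz (4.07). The seventh gene besides prd, dpp (2L, 2454629 to 2455020, fold 3.21), was called, of the full-length lists, at 1000 µM (2.84) and 1500 µM (2.90). The count moved with the window and the fold, and so did the share of all genes. On the gene span alone 2 of 34 had a member (5.88%, against 1.80% of all genes), and with 10000 bp 11 had one (32.4% against 8.55%). With the members limited to the 341 at or above the median fold of the list, 4 had one (11.8% against 2.10%).

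Other signalling and patterning lists also had members, and the whole Zelda list had regions at most of these genes (13 of 16 BMP and 14 of 16 Wnt and segment polarity genes). For the homeobox and Polycomb target regulators it had them at 26 of 30, and for the gastrulation genes at 7 of 10. Over all 13922 protein-coding genes, 54.1% had any Zelda region and 3.61% had a member. Of the BMP genes 5 of 16 had one, 31.3%, namely dpp, tkv, tld, shn, which encodes a transcription factor of the pathway (2R, 11214390 to 11214964, fold 2.68), and cv-2, which encodes a BMP-binding protein (2R, 21363733 to 21364777, fold 4.60). Of the Wnt and segment polarity genes 5 of 16 had one. They were Wnt6, a ligand gene (998 bp away, 2L, 7332456 to 7334552, fold 5.52), the receptor genes fz3 (X, 774277 to 774730, fold 5.91) and fz2 (fold 1.78), the feedback inhibitor nkd (3L, 19037851 to 19038468, fold 2.47) and the Pax gene gsb-n (2R, 25045770 to 25046248, fold 3.97). Of these, Wnt6, fz3, nkd and gsb-n were called at 1000 and 1500 µM, DMSO and taz, whereas fz2 was called with taz alone. Homeobox and Polycomb target regulators had one in 6 of 30 cases, at scro, Ubx (fold 3.66), Scr (2.76), lab (7.50), caup (6.31) and bab1 (3.01). The region at bab1 was the only one of these 6 called at 0 µM (1.81), and it was called in all 3 DBD lists. Of the other 6 full-length lists, only that at 0 µM called it. Gastrulation genes had one in 3 of 10 cases, at twi, at T48, a gene of mesoderm invagination (fold 2.85), and at Traf4 (2.10).

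The remaining gene lists were not tested against those above. Over all 13922 protein-coding genes, 45.1% had a region shared with wild type and 3.61% had a member. None of the 13 neural genes had a member, and 4 had any Zelda region. Of the 18 blood cell genes, markers of the host cell, 2 had one, the GATA cofactor gene ush (fold 3.65) and PPO2, a prophenoloxidase gene (1886 bp away, fold 2.80). Of the 6 cell-death genes hid had one 399 bp away (fold 3.48), called at 0 µM and in 2 DBD lists. Ribosomal protein genes had a member in 5 of 92 cases, 5.43%, against 3.61% of all genes. The regions shared with wild type reached 83 of 92, 90.2%, against 45.1% of all genes. The 5 with a member were RpL22, RpL7A, RpS15Aa, RpS5b and RpS3A, with folds of 5.10, 2.41, 2.47, 2.86 and 5.70. These members stood 1982, 1790, 620, 38 and 1712 bp from the genes, and those near RpS15Aa and RpS3A were called at 0 µM.

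The 575 members had 460 different nearest genes, of which 379 had 1 member and 23 had 3 or more. Within 10000 bp of another member stood 166 of them, in 75 groups. The following genes were picked after their values had been seen. The gene jing, which encodes a zinc-finger regulator, was nearest to 7 members (folds 2.37 to 5.10). Of these, 6 lay inside jing, and that of fold 5.10 stood 82953 bp away. Among the 7, 6 were in none of the other 6 full-length lists, as were 19.0% of all members and 5.04% of all Zelda regions. At l(2)41Ab near the 2R centromere this held for 5 of 6 members (2.48 to 11.5), and at AGO3, a gene of the piRNA pathway, for all 3 (2.38 to 5.90). The 3 members inside tkv (3.11 to 21.0) were called in 3 or 4 lists each and the 3 inside Samuel (3.90 to 14.5) in 4 or 5. The 3 near CG7320 (6.85 to 12.1) were called in 4 or 5, and the 4 at the Iroquois homeobox gene caup (2.33 to 6.31) in 3 or 4. Members at sli, the gene of the axon guidance ligand Slit (3 members, 2.82 to 4.94), were called in 3 to 5 lists. The 3 inside dlp, the gene of a glypican (3.14 to 4.23), were called in 1 to 4.

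Members stood at varying distance from the regions that would have removed them. The nearest region of the 6 excluding lists was a median of 2520 bp away, under 500 bp for 91 members and at least 10000 bp for 86. Just inside the rule were regions 4 bp from such a region, inside pxb (3R, 15678371 to 15678736, fold 2.76), 12 bp from one, near glec (fold 2.82), and 16 bp from one, near dnc (fold 2.77). Just outside were regions overlapping by 29 bp at CG15099 (2R, 18843754 to 18844252, fold 2.89), 38 bp at CG17065 (fold 2.64) and 40 bp at Mmp2, a matrix metalloproteinase gene (fold 4.13).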

How the data were processed

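The deposited narrowPeak lists of the authors were used as given, 31 lists, each tied by the labels to 2 libraries of a group (62 of 76 libraries). The other 14 libraries, inputs and IgG, were not analysed here. Per the submitters' processing notes the tools were Bowtie2 2.4.4, MACS2 2.2 and deepTools 3.5.1, with build dm6. Their settings are not given in the sources used here. Each list gives, per the authors' deposited values, a fold (a ratio over local background) and a −log10 p-value at each summit. Peak numbers in the Zelda list run to 9783 and 65.9% were kept, and no source used here names the filter behind this.

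Rows with equal chromosome, start and end were joined (highest fold kept). Regions were shared when they overlapped by 1 bp. Sequencing depth is not in the files. The whole-number summit pileup and local background were recovered from fold and −log10 p up to 250 under a Poisson model, and all 5389 such summits of the Zelda list gave a whole pileup within a relative tolerance of 0.0001. Gene positions came from the RefSeq table of the same assembly (13922 protein-coding genes), and the nearest gene was taken by distance from the summit to the gene span. Named regions are the 20 of highest fold, those at the edges of the rule, the 5 in most and 5 in fewest lists, and those at fixed gene lists. Members and lists were chosen with earlier results of these data known. Motif counts could not be made without a genome sequence. Overlap, nearest gene and pileup functions were tested on simulated data. Python 3.11.15, pandas 2.3.3, scipy 1.17.1 and matplotlib 3.10.9 were used.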

Additional observations from a re-analysis of the deposited data

How the results depend on the processing

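Of 59 alternative values, 38 stayed within the counting interval of the reported share or within 1.5 times the reported count. Limiting the members to regions above the median fold of the list left 341, of which 62.5% were called at 1000 µM, and 4 early zygotic genes. Removing regions of the 0 µM list as well left 465 and changed the shares to 76.6% in any other full-length list, 41.9% at 1000 µM, 55.7% with DMSO, 8.82% in a DBD list, 17.2% in other Grh or Twi lists and 12.9% near a gene end. Gene end windows of 250 and 1000 bp gave 13.2% and 25.4%. The gene span alone and 10000 bp gave 2 and 11 early zygotic genes. Alternatives chosen after the data were seen were the members without those near centromeres or on chromosome 4 (446), with 88.1% in any other full-length list, 59.0% at 1000 µM, 57.4% with DMSO and 31.2% in other Grh or Twi lists, and the use of all Grh and Twi lists to remove regions (418), with 75.8%, 40.9%, 11.2% in a DBD list and 12.7% near a gene end. A 50% overlap, a 500 bp distance and leaving out the wild-type anti-Grh list changed none of the 8 results by this measure. The CAGGTA alternatives were not run. No paired analysis was possible because each list pools its 2 libraries and no test was made. Leaving out a library was not possible for the same reason.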
